A study of Mus musculus with 2 samples.

Results

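The immunoglobulin heavy chain variable segments are the V gene pieces from which each B cell builds the antigen-binding end of its antibody heavy chain. Here a member was a gene symbol made of Ighv and a digit that held at least 20 UMIs (unique molecular identifiers, each counting 1 captured RNA molecule) over all barcodes. Of 185 such symbols among 55487 gene symbols, 51 were members, 63 held 1 to 19 UMIs and 71 held none. The members carried 11317 of the 11631 UMIs of all 185 symbols (97.3%), from 25 UMIs for Ighv10-1 to 1666 for Ighv4-1, with a median of 101. Just inside the limit were Ighv10-1 with 25 UMIs, Ighv1-75 with 28 and Ighv1-31 with 31. Just outside were Ighv2-2 with 19, Ighv1-74 with 16 and Ighv1-71 with 15.

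The cells were CD45+ immune cells sorted from the cecum of 4 male mice aged 101 days, 2 called CTRL and 2 called Trpv1-ADC. Per the labels all 4 received an adeno-associated virus (AAV) by intraperitoneal injection as neonates and then 7 injections of CNO, a drug used as the ligand of designer receptors, on alternate days. The strain label lists Trpv1-WT.B6 next to Trpv1-Cre.B6 for the pool and ties neither to a mouse, and the series design describes the comparison as activation of Trpv1+ neurons, with littermate controls. The virus's cargo and promoter are not given in the sources used here. Cells of a mouse were marked by an anti-CD45 hashtag of their own and all were run as 1 pooled droplet library, so every value per mouse below comes from the same run. Each mouse was 1 replicate, and 2 mice against 2 cannot give an exact two-sided permutation p below 0.333.

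As background, a developing B cell joins 1 V, 1 D and 1 J segment of the heavy chain locus, and the other segments are then cut out or left without an active promoter next to the constant genes. One B cell and all its descendants therefore transcribe 1 productive V segment at high level, so segment RNA marks clones as well as expression. Plasma cells secrete antibody and hold large amounts of heavy chain mRNA, whereas resting B cells hold little. In the gut most plasma cells make IgA, with alpha constant gene Igha. The V segment lies at the 5' end of the mRNA and the constant gene at the 3' end.

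The series design names 5' chemistry and the extraction protocol 3' v3 chemistry. In plasma cells, 1.88 Ighv UMIs were counted per 100 UMIs of the heavy chain constant genes, and in B cells 1.27. The share of cells with a segment UMI, the calls and the count of plasma cells without a segment UMI all rest on this capture, and how the chemistry bears on them was not tested. Of 23063 barcodes, all present in both the expression and the hashtag matrix, 22729 passed the cell filter and 19571 were assigned to 1 mouse. Median depth was 17388 to 20774 UMIs per plasma cell, 4312.5 to 4457.5 per B cell and 5833 to 6174 per T cell.

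All 51 members were annotated in GENCODE M21 as V genes, on the minus strand of chromosome 12 of GRCm38 (mm10). Of the 134 symbols that were not members, 62 were V genes, 69 V pseudogenes and 1 of another V class, and 2 were not matched. The members reached from position 113597446 to position 116000461. Of all 113 V genes, the 67 on the side of the locus midpoint (position 114789482) nearer to the D and J segments included 29 members and the 46 on the far side included 22. Symbols carry the family number first: 29 members were of family 1, the largest mouse family, 7 of family 5, 3 of family 7, and 1 or 2 each of families 2, 3, 4, 6, 8, 9, 10 and 14.

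The sequences of the 6 segments that lead the plasma cell data show how alike members of a family are. Shown are the last 290 bases of the V transcript, which lie within its V exon, for 5 of the 6 segments called in at least 8 plasma cells and for Ighv4-1, which had the most UMIs. Ighv7-3 and Ighv1-9 tied at 8 cells, and Ighv7-3, with more UMIs, is shown. They run 5′ to 3′ and are from GENCODE M21 transcripts. Capitals mark the bases at which a segment differs from the most similar other V segment of its family: Ighv1-85 for Ighv1-81, Ighv1-18 for Ighv1-26, Ighv1-80 for Ighv1-82, Ighv1-26 for Ighv1-18, Ighv7-2 for Ighv7-3 and Ighv4-2 for Ighv4-1.
Ighv1-81: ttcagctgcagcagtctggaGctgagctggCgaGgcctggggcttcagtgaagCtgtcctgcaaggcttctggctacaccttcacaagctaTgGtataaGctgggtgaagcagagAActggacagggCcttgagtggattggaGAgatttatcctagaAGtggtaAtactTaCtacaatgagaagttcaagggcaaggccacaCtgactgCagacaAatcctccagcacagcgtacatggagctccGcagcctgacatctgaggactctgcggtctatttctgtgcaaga
Ighv1-26: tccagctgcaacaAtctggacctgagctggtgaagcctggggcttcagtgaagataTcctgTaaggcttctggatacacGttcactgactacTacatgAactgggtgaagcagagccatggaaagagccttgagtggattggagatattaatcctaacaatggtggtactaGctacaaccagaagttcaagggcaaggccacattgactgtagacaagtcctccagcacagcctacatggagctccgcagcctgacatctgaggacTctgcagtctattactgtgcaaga
Ighv1-82: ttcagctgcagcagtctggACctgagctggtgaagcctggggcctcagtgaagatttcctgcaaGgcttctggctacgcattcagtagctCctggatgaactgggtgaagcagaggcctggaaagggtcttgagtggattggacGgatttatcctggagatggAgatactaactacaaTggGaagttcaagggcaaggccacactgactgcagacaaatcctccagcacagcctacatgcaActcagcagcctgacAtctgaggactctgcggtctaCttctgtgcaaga
Ighv1-18: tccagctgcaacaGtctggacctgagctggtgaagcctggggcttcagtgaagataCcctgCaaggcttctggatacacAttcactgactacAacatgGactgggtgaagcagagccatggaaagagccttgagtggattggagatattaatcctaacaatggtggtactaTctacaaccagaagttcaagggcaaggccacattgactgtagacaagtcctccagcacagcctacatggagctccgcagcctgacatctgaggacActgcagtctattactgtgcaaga
Ighv7-3: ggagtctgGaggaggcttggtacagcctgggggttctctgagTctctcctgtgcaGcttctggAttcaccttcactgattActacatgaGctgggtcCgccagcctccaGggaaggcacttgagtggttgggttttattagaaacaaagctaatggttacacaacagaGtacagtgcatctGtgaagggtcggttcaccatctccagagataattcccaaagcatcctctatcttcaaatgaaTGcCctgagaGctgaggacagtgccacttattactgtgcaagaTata
Ighv4-1: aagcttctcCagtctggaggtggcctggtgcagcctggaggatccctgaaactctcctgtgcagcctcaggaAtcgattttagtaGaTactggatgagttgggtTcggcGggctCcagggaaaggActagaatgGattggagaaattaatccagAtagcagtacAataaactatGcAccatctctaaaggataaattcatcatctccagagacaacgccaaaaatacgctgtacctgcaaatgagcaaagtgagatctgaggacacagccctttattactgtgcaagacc

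On GRCm38 chromosome 12 these stretches were chr12:115920279-115920568 for Ighv1-81, chr12:114788372-114788661 for Ighv1-26, chr12:115952538-115952827 for Ighv1-82, chr12:114682632-114682921 for Ighv1-18, chr12:114153180-114153469 for Ighv7-3 and chr12:113948282-113948571 for Ighv4-1. Ighv1-26 and Ighv1-18, both called in at least 9 plasma cells, differed from each other at 8 of these bases (97.2% identity), Ighv1-82 from Ighv1-80 at 11, Ighv4-1 from Ighv4-2 at 13, Ighv7-3 from Ighv7-2 at 15 and Ighv1-81 from Ighv1-85 at 21. Over the 51 members the median was 13 differing bases and the smallest 4, with 10 members under 10. Among the 61 V genes outside the members that had a relative to align, the median was 12 and the smallest 0, with 26 under 10. For a member, a median of 100% of all 90-base windows of the transcript occurred in no other V transcript (lowest 81.0%, with 32 members at 100%). For V genes outside the members the median was 97.9%, the lowest 2.96%, and 3 were under 50%. Reads common to near-identical segments cannot be placed, and somatic mutation changes the bases read, so counts of the closest pairs are uncertain.

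Variable segment RNA was concentrated in plasma cells. Cells were classed by counts of detected marker genes that included no antibody gene. Plasma cells needed 4 of 8 markers (such as the joining chain Jchain and the surface proteoglycan Sdc1), and B cells 4 of 10 (such as the receptor subunit Cd79a) with at most 1 of 6 T cell markers. This gave 85, 72, 43 and 27 plasma cells and 579, 682, 764 and 612 B cells in CTRL 1, CTRL 2, Trpv1-ADC 1 and Trpv1-ADC 2, the order used for every set of values per mouse below. The 227 plasma cells held 7825 of the 11317 member UMIs (69.1%), the 2637 B cells 346 (3.06%), the 12380 T cells 274 (2.42%), the 1017 myeloid cells 20 and 3310 other cells 228. The remaining 2624 UMIs (23.2%) lay in barcodes without a single mouse or removed by the filter and enter no value per mouse.

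**Figure D1:**
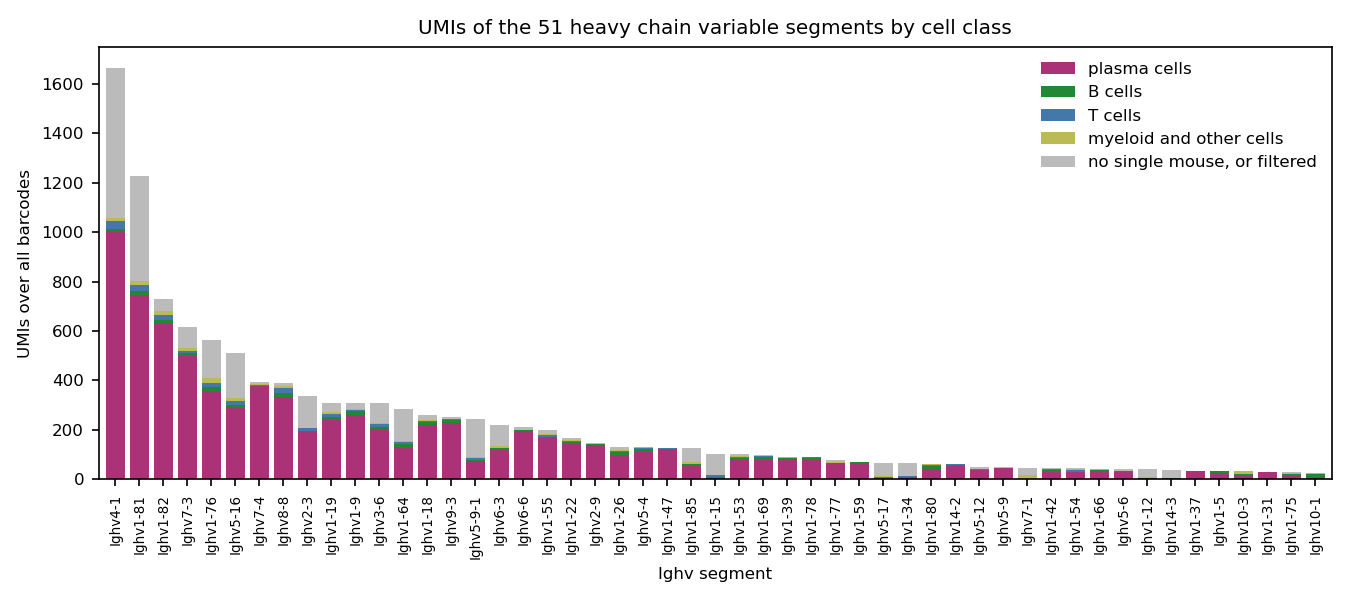
UMIs of each of the 51 members (bars, x axis) over all barcodes (y axis, UMIs), stacked by the class of the cell that held them. Plasma cells hold most UMIs of nearly every leading segment, and Ighv4-1 (1666) and Ighv1-81 (1226) stand above the rest.

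The B and plasma markers also defined these classes, so their detection there is partly set by the gates. The B cell gate likewise limited T cell markers. All 10 B markers were found in over 50% of B cells. Of 8 plasma markers 7 were found in over 50% of plasma cells in CTRL 1, CTRL 2 and Trpv1-ADC 1 and 6 in Trpv1-ADC 2, with summed levels of 34951, 34189, 31463 and 17471 UMIs per 1000000. T cell markers were also present in plasma cells: 93 of 227 had more than 1 of 6, which is 43.5%, 43.1%, 25.6% and 51.9% of plasma cells per mouse, with summed levels of 318, 250, 277 and 422 UMIs per 1000000 against 62.5 to 70.1 in B cells. No T marker was at 0. Their part in the segment values was not tested; values over plasma cells with at most 1 T marker are given with the plasma comparison. The gate was also close to its limit for some cells, with 44 plasma cells at exactly 4 markers and 250 cells at 3. Epithelial markers were summed at 29.9, 189, 24.1 and 623 UMIs per 1000000 in plasma cells.

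Most plasma cells with variable segment UMIs could be called for 1 segment. A cell was called for a segment when its top member had at least 2 UMIs and at least 2 times the next. This held for 64 of 85, 55 of 72, 27 of 43 and 19 of 27 plasma cells, 165 of 227 in all (72.7%). Of the others, 45 had no variable segment UMI and 17 had UMIs but no call, 7 of them with a single UMI and 10 with a second segment of at least 2 UMIs and more than 0.5 of the first. Over all plasma cells 186 of 7825 variable segment UMIs (2.38%) belonged to a segment other than the top one of their cell. In called cells, where the rule itself keeps this low, it was 85 of 7582 (1.12%), 131 cells showed 1 segment alone, and 11 had a second segment with 2 or more UMIs. In 7 of those 11 the second segment was of the same family, and in 1 the segments were a pair in which one was the most similar relative of the other. The called segment had a median of 29 UMIs per cell, from 2 to 285. By contrast 1 of 12380 T cells and 0 of 1017 myeloid cells were called. The 0 of 1017 allows a share of up to 0.295% by the 3-count limit. The T and myeloid gates left out plasma cells and limited B cell markers, so this contrast is partly set by the gates. Of the 3310 other cells 24 were called (0.725%).

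Cells with IgA accounted for most calls. Of 227 plasma cells 195 were IgA by their top constant gene (71, 69, 36 and 19 per mouse), 12 were IgM or IgD, 8 were of an IgG class and 12 had no clear class. A segment was called in 158 of 195 IgA cells (81.0%) and in 2 of 12 IgM or IgD cells. The median variable segment count of IgA cells was 22 UMIs.

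Usage was spread over many segments. Of the 51 members 45 were called in at least 1 plasma cell: 21 in a single mouse, 11 in 2, 10 in 3 and 3 in all 4 mice. CTRL 1 used 29 segments in 64 called cells, CTRL 2 24 in 55, Trpv1-ADC 1 15 in 27 and Trpv1-ADC 2 17 in 19. Family 1 was used by 109 of 165 called cells (66.1%), with shares of 67.2%, 63.6%, 70.4% and 63.2% per mouse, a range in which CTRL and Trpv1-ADC mice overlapped. Family 5 followed with 11 cells and family 7 with 10. The far side of the locus gave 46.9%, 43.6%, 37.0% and 52.6% of called cells, again with overlapping groups.

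**Figure D2:**
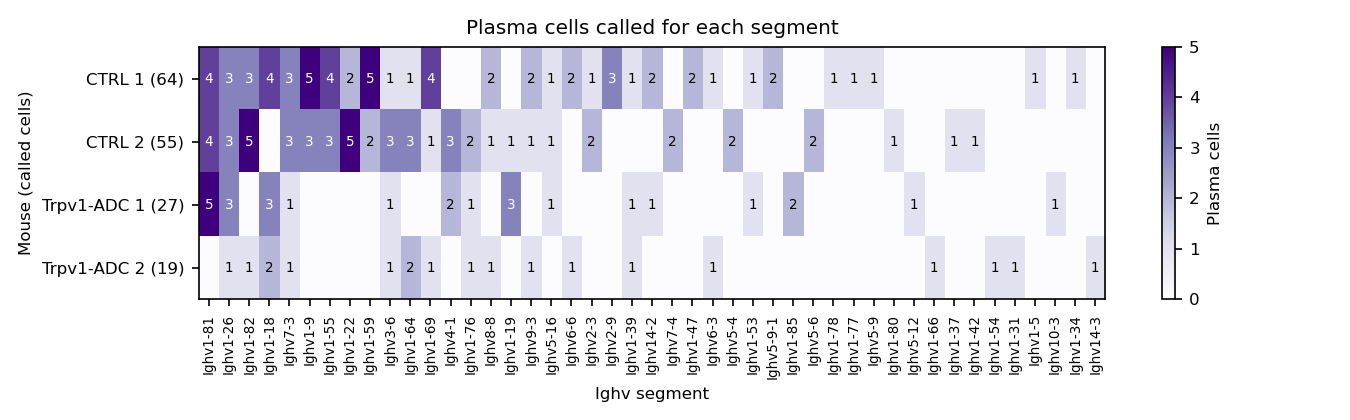
Number of plasma cells called for each of 45 segments (x axis) in each mouse (y axis, with its called cells in parentheses), darker squares marking more cells. Ighv1-26, Ighv7-3 and Ighv3-6 were called in every mouse, while most segments to the right were called in 1 mouse.

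Ighv1-81 was the segment called in the most plasma cells, with 4, 4, 5 and 0 cells per mouse. It was the most used segment of Trpv1-ADC 1, with 18.5% of that mouse's called cells. Its cells held 8 to 117 UMIs of it in CTRL 1, 15 to 46 in CTRL 2 and 13 to 174 in Trpv1-ADC 1. Trpv1-ADC 2, with 19 called cells, had no cell with it, and the groups overlapped.

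Ighv1-26 was called in 3, 3, 3 and 1 plasma cells and was thus found in every mouse, as were Ighv7-3 (3, 3, 1 and 1) and Ighv3-6 (1, 3, 1 and 1). Levels differed widely between these segments. The 10 Ighv1-26 cells held 2 to 20 UMIs of it, whereas the 8 Ighv7-3 cells held 5 to 174. Ighv1-18, the close relative of Ighv1-26, was called in 4, 0, 3 and 2 cells.

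Ighv1-82 was called in 3, 5, 0 and 1 plasma cells and Ighv1-9 in 5, 3, 0 and 0. Ighv1-55 was called in 4, 3, 0 and 0, Ighv1-22 in 2, 5, 0 and 0, and Ighv1-59 in 5, 2, 0 and 0. The segments Ighv1-9, Ighv1-55, Ighv1-22 and Ighv1-59, with 7 or 8 cells each, were called in CTRL mice alone. Ighv1-55 still had 26 plasma cell UMIs in Trpv1-ADC 1, where it was the second segment of cells (9 and 17 UMIs) and so not called. The Trpv1-ADC mice had 46 called cells against 119 in CTRL mice, so fewer segments can be seen in them: 19 members were called in CTRL cells alone, 7 in Trpv1-ADC cells alone and 19 in both.

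A few cells set the UMI total of many segments. For 23 members a single plasma cell held over 50% of the plasma cell UMIs. The 10 cells with the most variable segment UMIs held 24.6% of all in plasma cells. Ighv4-1 had the most UMIs of any segment, 1, 761, 243 and 0 in plasma cells per mouse, from only 5 called cells: 3 in CTRL 2 with 285, 231 and 205 UMIs and 2 in Trpv1-ADC 1 with 195 and 48. It made up 23.5% of the variable segment UMIs of CTRL 2. Counts of called cells and counts of UMIs therefore ranked the segments differently, and the leading segment by UMIs was Ighv1-81 in CTRL 1 and Trpv1-ADC 1, Ighv4-1 in CTRL 2 and Ighv6-3 in Trpv1-ADC 2.

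**Figure D3:**
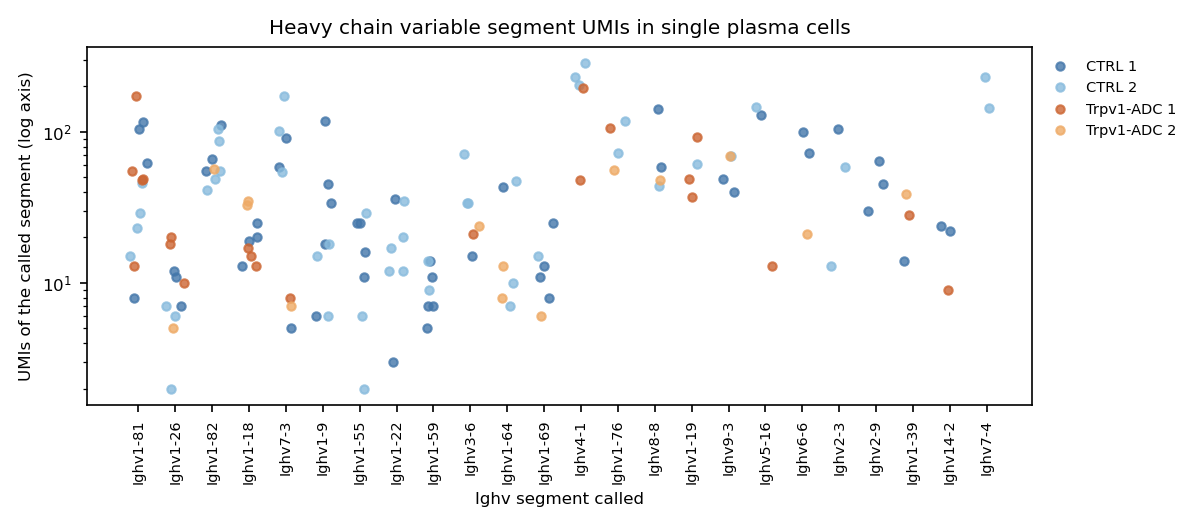
UMIs of the called segment (y axis, log scale) in single plasma cells, 1 point per cell coloured by mouse, for the 24 segments called in the most cells (x axis). Ighv4-1 cells reach 285 UMIs, while Ighv1-26 cells stay at or under 20.

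Pairing with the light chain showed repeated combinations, most of them within a mouse. The light chain segment was called by the same rule over Igkv and Iglv genes, and 141 plasma cells had both calls, in 98 distinct pairs. Of these pairs 73 were seen once, 19 were repeated within a mouse and 10 occurred in more than 1 mouse. Cells in a pair repeated within their own mouse numbered 23 of 55, 20 of 48, 6 of 23 and 0 of 15 per mouse. The chance that any 2 such cells of a mouse had the same pair, which does not depend on how many cells there are, was 1.55%, 1.51%, 1.19% and 0%.

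Within single mice, Ighv1-59 paired with the lambda segment Iglv1 in 5 cells of CTRL 1 and Ighv1-82 with Igkv3-7 in 4 cells of CTRL 2. Ighv1-69 paired with Igkv12-98 in 4 cells of CTRL 1 and also in 1 cell of Trpv1-ADC 2. All of these were IgA cells. In CTRL 2 both Ighv1-59 cells instead carried Igkv6-15. Across mice, Ighv3-6 with Igkv3-2 was found in 1 cell of each of the 4 mice. Ighv1-81 with Igkv1-110 was found in 2, 1, 2 and 0 cells and with Igkv1-117 in 1, 1, 2 and 0. Junction sequences, which separate clones that use the same pair, are not part of these counts. These pairs were named after their values were seen.

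Plasma cells of the Trpv1-ADC mice had a lower share with any variable segment UMI. The shares were 82.4%, 84.7%, 74.4% and 70.4%, a difference of -11.1 percentage points with both Trpv1-ADC mice below both CTRL mice. The exact permutation p was 0.333, the smallest that 4 mice allow. Exact (Clopper-Pearson) 95% intervals, which cover counting error only, were wide and overlapped, from 49.8% to 86.2% in Trpv1-ADC 2 and from 72.6% to 89.8% in CTRL 1. Thinned to 2000 UMIs per cell the shares were 67.8%, 71.3%, 66.7% and 59.7%. Median variable segment UMIs per plasma cell were 17, 19.5, 16 and 13. Other antibody RNA per plasma cell moved with these shares: Jchain had means of 714, 674, 522 and 356 UMIs and the kappa constant gene Igkc 4287, 4648, 3519 and 2776, both lower in both Trpv1-ADC mice. Variable segment UMIs per 100 heavy chain constant UMIs were 1.64, 2.39, 1.71 and 1.45, and the groups overlapped (exact permutation p = 0.667). Among IgA cells the called shares also overlapped, at 84.5%, 79.7%, 75.0% and 84.2%. The shares of IgA cells with any variable segment UMI were 93.0%, 88.4%, 86.1% and 84.2%, lower in both Trpv1-ADC mice. The part of these values, and of the lower plasma marker level of Trpv1-ADC 2, in the shares was not tested. Summed over the members, plasma cells held 1495, 2178, 1731 and 1013 variable segment UMIs per 1000000 UMIs, and here the groups overlapped (exact permutation p = 0.667).

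The chance that 2 called plasma cells of a mouse shared a segment was 3.13%, 3.57%, 5.98% and 1.17%. The Trpv1-ADC mice lay on either side of both CTRL mice, and the difference of means was 0.229 percentage points (3.35% ± 0.314 in CTRL against 3.58% ± 3.40 in Trpv1-ADC; SD, n = 2; exact permutation p = 1). Its sign changed to -0.179 with hashtag assignment by HTODemux and to -2.18 without Trpv1-ADC 1.

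No segment passed the test for a difference between groups in plasma cells. UMIs were summed per mouse and all 8633 genes with enough counts were tested with edgeR's quasi-likelihood test and Benjamini-Hochberg adjustment at 0.05. Of these, 0 were higher and 0 were lower in Trpv1-ADC mice (0% of genes tested in each direction). An unadjusted p under 0.05 was found for 428. DESeq2, run on 21054 genes without this count filter, called 20. Among the 26 members tested by edgeR, 0 were called and 7 had an unadjusted p under 0.05. DESeq2 gave an adjusted p to 37 members and called 4. The 51 members include 25 with too few counts for the edgeR test.

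The tested members had a median log2 fold change (Trpv1-ADC over CTRL) of -0.89 against 0.014 over all genes tested, with 16 below 0 and 10 above. Setting the 3 members that had a group at 0 to their bounds leaves this median as it is, since each bound lies on the same side of it. Of the 26, 9 had under 10 UMIs in both mice of a group and passed the low-count filter through the other group, so these counts and the median are partly set by the filter and describe only the members tested. Both mice of a group lay apart from both of the other for 8 of 26 members in the lower direction and 3 of 26 in the higher, against 18.6% and 17.9% of all genes tested. Fewer cells using a segment and less RNA per cell cannot be told apart in these sums.

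The 5 segments with the smallest unadjusted p were named after their values were seen. Ighv2-3 had 117, 72, 2 and 0 plasma cell UMIs, a log2 fold change of -5.33 ± 0.63 (SE) with an edgeR adjusted p of 0.197. Of these UMIs 54.5% were in a single cell, and 3 cells were called for the segment, all in CTRL mice. Ighv7-3 had 156, 330, 8 and 7 UMIs from 3, 3, 1 and 1 called cells (-3.96 ± 0.60, edgeR adjusted p = 0.637). Ighv1-22 had 49, 96, 0 and 1 UMIs (-5.92 ± 0.95, edgeR adjusted p = 0.541).

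For Ighv1-59 the UMIs were 44, 23, 0 and 0, at least 9.08-fold lower in Trpv1-ADC mice when their 0 is set to a floor of 3 counts over the group (edgeR adjusted p = 0.482). Ighv1-66 was the reverse, with 0, 0, 17 and 18 UMIs, at least 28.7-fold higher in Trpv1-ADC mice by the same floor (edgeR adjusted p = 0.265). Its UMIs lay in 5 plasma cells. Only 1 cell, in Trpv1-ADC 2, was called for it, and it held 17 of the 18 UMIs of that mouse. The same cell held 5 UMIs of Ighv1-75. All 17 UMIs of Trpv1-ADC 1 lay in cells not called for Ighv1-66. How reads were divided between Ighv1-66 and Ighv1-75 was not tested. In each of these 5 segments both mice of a group lay apart from both of the other. They were picked by the p of this same comparison, so that separation follows from the choice and adds no support. Ighv2-3, Ighv1-22, Ighv1-59 and Ighv1-66 had 2 or fewer UMIs per mouse in 1 group and passed the low-count filter through the other. Choices of tool and cells moved the number of members called between 0 and 10. With DESeq2 it was 4 of the 48 members run, beside 20 of the 21054 genes run. Only 37 of these members were given an adjusted p, and the 21054 genes likewise include some without one. The DESeq2 adjusted p was 4.8e-05 for Ighv7-3, 0.00267 for Ighv1-9, 0.00668 for Ighv2-3 and 0.0115 for Ighv1-66. Without the low-count filter 10 of 48 members were called, beside 117 of 21054 genes. A stricter plasma gate of 6 markers gave 4 of 24 members, beside 11 of 6492 genes. Ighv2-3 and Ighv1-66 were among those called in each of these 3 alternatives. The alternatives reuse the counts of the same 4 mice, and both segments were picked by the p of this comparison. Their being called in all 3 therefore adds no support. The number of members called was 0 with HTODemux, with antibody genes left out of library sizes and in plasma cells with at most 1 T marker.

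In B cells variable segments were detected far less often, yet more often than in cells that make no antibody. A variable segment UMI was found in 11.6%, 13.6%, 9.29% and 9.80% of B cells per mouse, against 2.23%, 2.03%, 2.04% and 2.35% of T cells and 1.22% to 2.53% of myeloid cells, although B cells were shallower than both. Thinned to 2000 UMIs, which left out 47 B cells and 74 T cells, the shares were 5.09%, 5.97%, 4.21% and 4.04% in B cells against 0.620% to 0.699% in T cells. The T cell share was taken as the background level; its source was not tested. Both Trpv1-ADC mice were below both CTRL mice, by 1.40 points in the thinned means (5.53% ± 0.620 in CTRL against 4.13% ± 0.120 in Trpv1-ADC; SD, n = 2; exact permutation p = 0.333). In T cells the thinned difference was -0.0263 points (0.675% in CTRL against 0.649% in Trpv1-ADC) and the unthinned one 0.0638 points (exact permutation p = 0.667 for both).

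**Figure D4:**
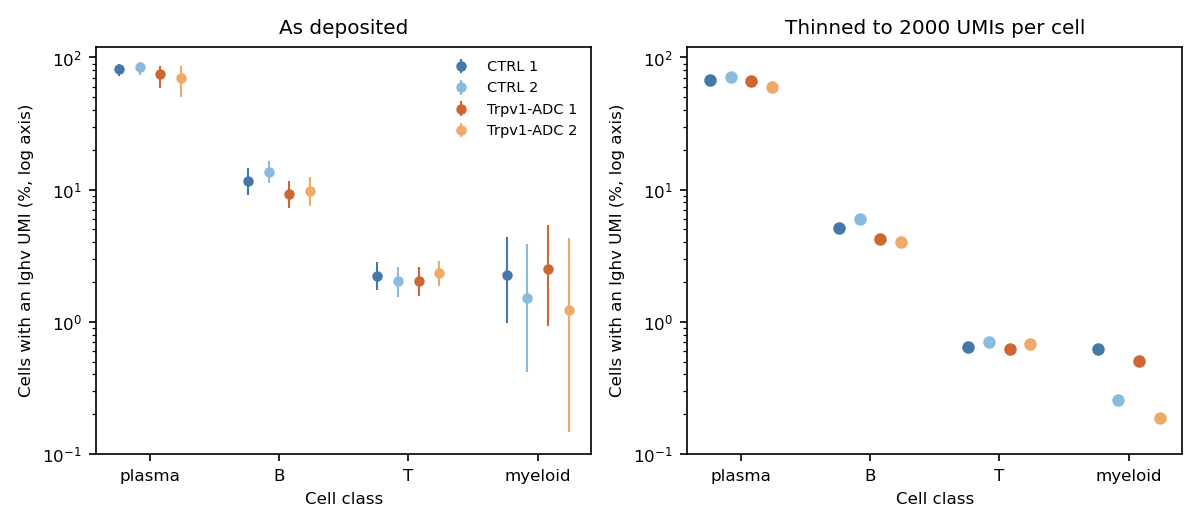
Share of cells with at least 1 variable segment UMI (y axis, percent, log scale) by cell class and mouse, as deposited with exact 95% intervals (left) and as the expected share after thinning to 2000 UMIs (right). Plasma cells lie at 70.4% to 84.7%, B cells at 9.29% to 13.6%, and T cells near 2%.

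Few B cells could be assigned a segment. With at least 2 UMIs needed, 8 B cells were called in each mouse, which is 1.38%, 1.17%, 1.05% and 1.31% of B cells, a difference of -0.100 points between group means (exact permutation p = 0.667). The sign of this difference changed without CTRL 1 (0.00413) and without Trpv1-ADC 1 (0.0298). When 1 UMI was enough for a call, the difference was -3.21 points (exact permutation p = 0.333). The 32 called B cells used 23 members. Ighv1-76 was called in 3, with 1 each in CTRL 1, CTRL 2 and Trpv1-ADC 1.

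Ighv4-1, Ighv5-16, Ighv3-6, Ighv1-64, Ighv9-3, Ighv6-3 and Ighv10-1 were called in 2 B cells each. The other 15 were called in 1 cell each. Both Ighv4-1 cells and both Ighv9-3 cells were from Trpv1-ADC 1, the only mouse in which 2 called B cells shared a segment. Accordingly the chance that 2 called B cells shared a segment was 0%, 0%, 7.14% and 0% (exact permutation p = 1). Called B cells of family 1 were 5 of 8, 5 of 8, 2 of 8 and 5 of 8 (62.5%, 62.5%, 25% and 62.5%; exact permutation p = 1), a difference of 0 without Trpv1-ADC 1.

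Family 1 took a smaller share of B cell segment UMIs in the Trpv1-ADC mice. It held 53 of 80, 70 of 105, 44 of 85 and 40 of 76 UMIs, which is 66.3%, 66.7%, 51.8% and 52.6%, with both Trpv1-ADC mice below both CTRL mice. Family 1 UMIs per 1000 B cells were 91.5, 103, 57.6 and 65.4, and those of the other families 46.6, 51.3, 53.7 and 58.8. When 1 UMI was enough for a call, 72.7% of 66, 68.1% of 91, 54.3% of 70 and 53.6% of 56 called B cells used family 1, a difference of -16.5 points (70.4% ± 3.25 in CTRL against 53.9% ± 0.505 in Trpv1-ADC; SD, n = 2; exact permutation p = 0.333, the smallest that 4 mice allow).

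The order of the groups was the opposite in plasma cells and T cells. In T cells, taken as the background, family 1 held 42.6%, 48.3%, 51.6% and 55.8% of variable segment UMIs. In plasma cells it held 54.7%, 34.6%, 71.9% and 57.7%. Without Ighv4-1 these plasma cell shares were 54.7%, 45.3%, 88.6% and 57.7%. Exact 95% intervals in B cells, which treat UMIs as independent, ran from 54.8% to 76.4% in CTRL 1 and from 40.7% to 62.7% in Trpv1-ADC 1, and overlapped. How free RNA entered the B cell shares was not tested.

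**Figure D5:**
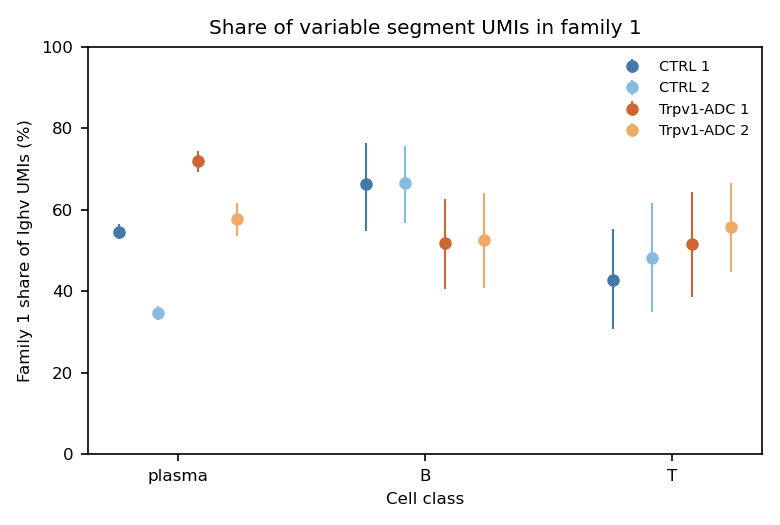
Share of variable segment UMIs that belong to family 1 (y axis, percent) by cell class and mouse, with exact 95% intervals that cover counting error only. In B cells CTRL mice lie at 66.3% and 66.7% and Trpv1-ADC mice at 51.8% and 52.6%, while in plasma and T cells the Trpv1-ADC mice lie higher.

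Segments were ranked differently in B cells and plasma cells. By UMIs the leaders in B cells were Ighv1-76 with 19, Ighv1-9 with 18, and Ighv1-81, Ighv8-8 and Ighv1-82 with 16 each. Ighv10-1 had 13 UMIs in B cells and 8 in plasma cells, and 0 in T cells. Among the members 48 had at least 1 B cell UMI, 16 of them in all 4 mice. Over the 51 segments, UMIs in T cells followed those in plasma cells (Pearson's r = 0.86, Spearman's rho = 0.68), as descriptions across segments that share 1 library. The values for B cells against plasma cells were 0.51 and 0.52.

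Usage was only loosely alike between mice. Over the 51 segments, the shares of called plasma cells in CTRL 1 and CTRL 2 had Pearson's r = 0.42 and Spearman's rho = 0.32, and those in the Trpv1-ADC mice r = 0.10 and rho = 0.097. Between mice of different groups r was 0.11 to 0.24. These rest on 19 to 64 called cells per mouse and are given as descriptions.

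Among B cells, those with germinal centre markers gave more calls. Germinal centre B cells proliferate and mutate their segments, and 85 B cells had at least 3 of 10 markers such as the transcription factor Bcl6. The markers were not particular to B cells: over 1 was found in 14.7% of B cells, 18.2% of T cells and 21.8% of myeloid cells. Of the 85 B cells 9 were called (1 of 15, 2 of 23, 4 of 23 and 2 of 24), against 23 of 2552 other B cells. Their median depth was also higher, 8566 against 4357.5 UMIs. Thinned to 2000 UMIs, a variable segment UMI was expected in 9.86%, 6.48%, 9.83% and 5.04% of them. In other B cells it was expected in 4.96%, 5.95%, 4.04% and 4.00%, lower in 4 of 4 mice. Before thinning only 4, 4, 5 and 6 of the cells with germinal centre markers had such a UMI. B cells with a UMI of Ighd, the delta constant gene of naive cells, were called in 26 of 2158 and those without one in 6 of 479.

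No member could be tested for a group difference in B cells, since none passed the low-count filter. The fit tested 11528 genes, of which 2 were higher and 2 lower in Trpv1-ADC mice (0.0173% each) by edgeR's quasi-likelihood test with adjustment. With no filter 48 members were tested and 0 called. DESeq2 gave an adjusted p for 3 members and called 0. The antibody pathway genes were read from the same fit by lists. Of the constant genes 11 of 12 were tested, of receptor and signalling genes 11 of 11, of recombination and mutation genes 9 of 12, of transcription factors of the heavy chain locus 14 of 14 and of secretion genes 6 of 7. By edgeR 0 were called in every list, and 8 of these 51 genes (15.7%) had an unadjusted p under 0.05, against 871 of all 11528 genes tested (7.56%).

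Median log2 fold changes were 0.011 for the constant genes, 0.054 for receptor genes, 0.029 for recombination genes and -0.021 for transcription factors, against -0.00020 over all genes tested. Ighm, the mu constant gene of the first antibody class, was at 0.12 ± 0.086 (SE; edgeR adjusted p = 0.824). The secretion list had a median of -0.52, with 0 of 6 genes above 0. Sdc1 within it had 24, 24, 10 and 8 B cell UMIs (-1.45 ± 0.40, edgeR adjusted p = 0.437). In this list Jchain, Mzb1, Prdm1 and Sdc1 are also markers of the plasma cell gate. B cells had under 4 of those 8 markers by rule, so the values of these genes in B cells are partly set by the gate.

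In plasma cells by edgeR 0 genes were called in any of these lists as well. The constant genes had a median of -0.82 with 3 of 11 above 0. Igha, the alpha constant gene, was at -0.31 ± 0.48 (edgeR adjusted p = 0.957). Ighm had 6068, 761, 53 and 19 UMIs (-5.36 ± 1.57, edgeR adjusted p = 0.924) and 7, 1, 3 and 1 plasma cells were of the IgM or IgD class.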

How the data were processed

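The authors deposited unnormalised UMI counts for each gene in each barcode, and unnormalised hashtag counts; all values were whole numbers. Per the submitters' processing notes they used Cell Ranger, Seurat and build mm10. Versions, annotation and the choice of barcodes are not given in the sources used here. Cells were barcodes with 500 UMIs or more, 200 genes or more and no more than 10% of UMIs from mitochondrial genes. A mouse was assigned where its hashtag had at least 10 counts and 3 times the next, which left 3158 kept barcodes without a mouse and removed doublets between mice; no caller was run for doublets within a mouse. Cell classes, segment calls, isotypes and light chains were computed by fixed rules without clustering. Thinned shares are expected values. The deposited counts were summed per mouse and class (590423 to 1805807 UMIs in plasma cells, 3070402 to 3749487 in B cells) and tested with edgeR 4.0.16 (TMM, filterByExpr, robust quasi-likelihood, no covariate), with DESeq2 1.42.0 and HTODemux of Seurat 5.3.0 (positive quantile 0.99) as alternatives; the code was tested on simulated data. Single values were compared by exact two-sided permutation of 4 mice. Whether the 2 mice of a group came from separate litters is not stated. Named segments are those with the most called B or plasma cells, the most used per mouse and those at the 20 UMI limit. The members and lists were chosen with earlier results of these data known.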

Additional observations from a re-analysis of the deposited data

How the results depend on the processing

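Counts of called genes moved with the settings, and the cause was not tested. In B cells 4 genes were called, against 23 with DESeq2, 351 without the low-count filter, 2 with HTODemux, 8 with the stricter gate and 1 to 178 when a mouse was left out (64 without CTRL 1, 178 without CTRL 2, 1 without Trpv1-ADC 1). In plasma cells 0 were called, against 20 with DESeq2, 117 without the filter, 11 with the stricter gate, 1 with at most 1 T marker (chosen after seeing the data) and 0 to 32 when a mouse was left out. Members called in plasma cells numbered 0, against 4 with DESeq2, 10 without the filter, 4 with the stricter gate and 0 to 5 when a mouse was left out. With the mouse number as a replicate block 21 genes were called in B cells, 27 in plasma cells and 6 members in plasma cells; deviations of same-numbered mice correlated at 0.035 and 0.185, and the numbers are not stated to pair mice. In B cells 0 members were called of 48 tested without the filter and of 3 with DESeq2; the other 8 alternatives, like the analysis reported, had none to test. When a group is left with 1 mouse, that mouse is assumed to vary like the others. The share of called B cells differed by 0.0608 points with calls at 4 UMIs, by -3.21 with calls at 1 UMI and by -0.481 with the stricter gate. When a mouse was left out it differed by -0.230 to 0.0298 points. The chance that 2 called plasma cells share a segment differed by -0.179 points with HTODemux and by -2.18 to 2.64 when a mouse was left out. Family 1 use and segment sharing in called B cells could not be compared with calls at 4 UMIs, since CTRL 2 had no such cell. Of the other alternatives, 87 stayed on the same side of the threshold, within 1.5 times the count or within 1 SD of the value. Values compared by permutation of 4 mice could not pass the threshold, so for them staying on the same side was fixed in advance. The 87 include the 8 with no member to test. They also include 2, without Trpv1-ADC 1, in which the differences in family 1 use and in segment sharing of called B cells were 0. Another 17, for single segments in plasma cells, passed the threshold in the same direction. With 32 called B cells, shares among them are coarse.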
